A study of Mus musculus with 18 samples.

Results

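MDA5-protected peaks in 5′ UTRs are stretches of mouse liver RNA that survived RNase digestion after incubation with MDA5ΔCARD and that touch the 5′ untranslated region of a protein-coding transcript. They were chosen as the deposited MDA5-protected peaks that overlap by at least 1 base, on their own strand, a 5′ UTR of a protein-coding transcript in GENCODE M21 (GRCm38). The rule found 473 peaks among the 11501 MDA5-protected peaks of 6 libraries (4.11%), of which 237 came from editing-deficient and 236 from Mavs-/- mice. The experiment holds 18 lists of peaks, from 2 genotypes, 3 RNA fractions and 3 biological replicates each. Editing-deficient (Adar-/-; Mavs-/-) mice lack ADAR1 and, to survive, also MAVS, whereas the Mavs-/- mice lack MAVS only, are called wild-type in the sample titles, and served as the editing-competent control. All mice were 8 to 9 days old, and both groups lack MAVS. The MDA5-protected fraction was digested with RNases A and T1 in the presence of recombinant mouse MDA5ΔCARD, a form of the protein without its CARD domains. The RNase only fraction saw the same RNases but no MDA5ΔCARD, and input RNA was left undigested. RNA was treated with DNase I during extraction.

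MDA5 is a cytoplasmic sensor that assembles into filaments along double-stranded RNA and signals through the adaptor MAVS. ADAR1 converts adenosines in double-stranded RNA to inosines, which marks the RNA of the cell as self. The 5′ UTR lies between the cap and the start codon, is scanned by the small ribosomal subunit before translation starts, and is often rich in G and C and able to fold, which is known to slow scanning.

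The sequences under the summits of some of the named recurrent and long peaks are shown as examples of base composition. Each is the 25 nt around the summit of the peak with the largest area, 5′ to 3′ on the strand of the mRNA, from GENCODE M21 transcripts (GRCm38). Capitals mark the longest run of only G and C.
Shisa4: atGCCGCCCGCGGGGCCCCGCGGGa
Nrg3: cccccgtcctctcctCCCCGCCCGC
Yes1: gaGGCGCCGCCGCCCCtgccgctgt
Dlg1: CGGGCCGCGGCGagcgggcgagcgg
Stat5b: GCGGCGCGCGCCCCCGtgggccccg
Rxra: cggaGGCGCGGGCGGCGGGtgcgcg
Xiap: tccctctgctCCCCtcccctccctt
Cldn7: ttttgtttttttgtttttttGCttt

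The first 6 of these windows held between 84% and 96% G and C. The window of Xiap was mostly pyrimidines, with 68% GC, and that of Cldn7, the longest peak of all, was mostly U, printed as t, with 16% GC. The Shisa4 summit lies on chromosome 1 (135374937 to 135374961, minus strand), just past the end of the 5′ UTR, 289 nt from the transcript start in a 5′ UTR of 276 nt. The Nrg3 window lies on chromosome 14 (39472984 to 39473008, minus strand), the Yes1 window on chromosome 5 (32611469 to 32611493, plus strand) and the Dlg1 window on chromosome 16 (31663987 to 31664011, plus strand). The windows of Stat5b and Cldn7 lie on chromosome 11 (100850553 to 100850577, minus strand, and 69965853 to 69965877, plus strand). The window of Rxra lies on chromosome 2 (27677207 to 27677231, plus strand) and that of Xiap on chromosome X (42068523 to 42068547, plus strand). All 8 lie in exon 1 of their transcripts.

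The number of 5′ UTR peaks was compared between genotypes first. The editing-deficient libraries held 41, 83 and 113 such peaks in replicates 1, 2 and 3, and the Mavs-/- libraries 51, 89 and 96. The genotypes overlapped over nearly their whole range, with means of 79 ± 36.2 and 78.7 ± 24.2 (SD, n = 3 each, two-sided exact permutation test, p = 1). As a share of all peaks of the library, 5′ UTR peaks made up 2.51%, 3.00% and 3.94% in the editing-deficient and 2.79%, 7.30% and 8.14% in the Mavs-/- libraries. Mavs-/- replicates 2 and 3 stood above the other 4 libraries, and these held the fewest peaks in all, 1220 and 1180 against 1636 to 2868. The mean shares of 3.15% ± 0.729 and 6.07% ± 2.88 (SD, n = 3 each) differed by -2.92 percentage points (editing-deficient minus Mavs-/-), within the spread between the Mavs-/- libraries (exact permutation p = 0.30, with 0.10 the smallest that 3 libraries against 3 allow). The lists carry no read counts, so the depth of each library was not known here. The results of the paper give approximate read numbers, with more for input than for RNase only samples.

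The same rule was applied to both control fractions. The RNase only libraries held 105, 116 and 109 peaks in 5′ UTRs in the editing-deficient and 100, 118 and 252 in the Mavs-/- mice, which were 1.81%, 1.90%, 1.94%, 1.79%, 3.08% and 8.00% of their peaks. Mavs-/- RNase only replicate 3 stood apart from the other 5 in number, share and, below, base composition, and tests against this fraction are given with and without it. The share was higher with MDA5 than in the RNase only library of the same genotype and number in 6 of 6 pairs, by 1.52 percentage points on average. This difference was within the spread between libraries when labels were exchanged within genotypes (exact permutation p = 0.155, adjusted p = 0.215 over the 18 tests), whereas with the replicate number as a block the exact sign-flip test gave p = 0.03125, the smallest possible with 6 pairs. Without Mavs-/- RNase only replicate 3 the difference was 2.5 points (exact permutation p = 0.025). The input libraries held between 517 and 1011 peaks in 5′ UTRs, or 10.5% to 12.4% of their peaks, above every MDA5-protected library (difference -6.72 points, exact permutation p = 0.005, the smallest that these splits allow, adjusted p = 0.03). That difference shrank to -0.50 points when the middle base of the peak had to lie in the 5′ UTR (exact permutation p = 0.47). The authors called digested libraries against input and input libraries without that control, so these shares come from unlike calls. Input peaks are also longer, and a longer peak touches a 5′ UTR more easily.

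**Figure D1:**
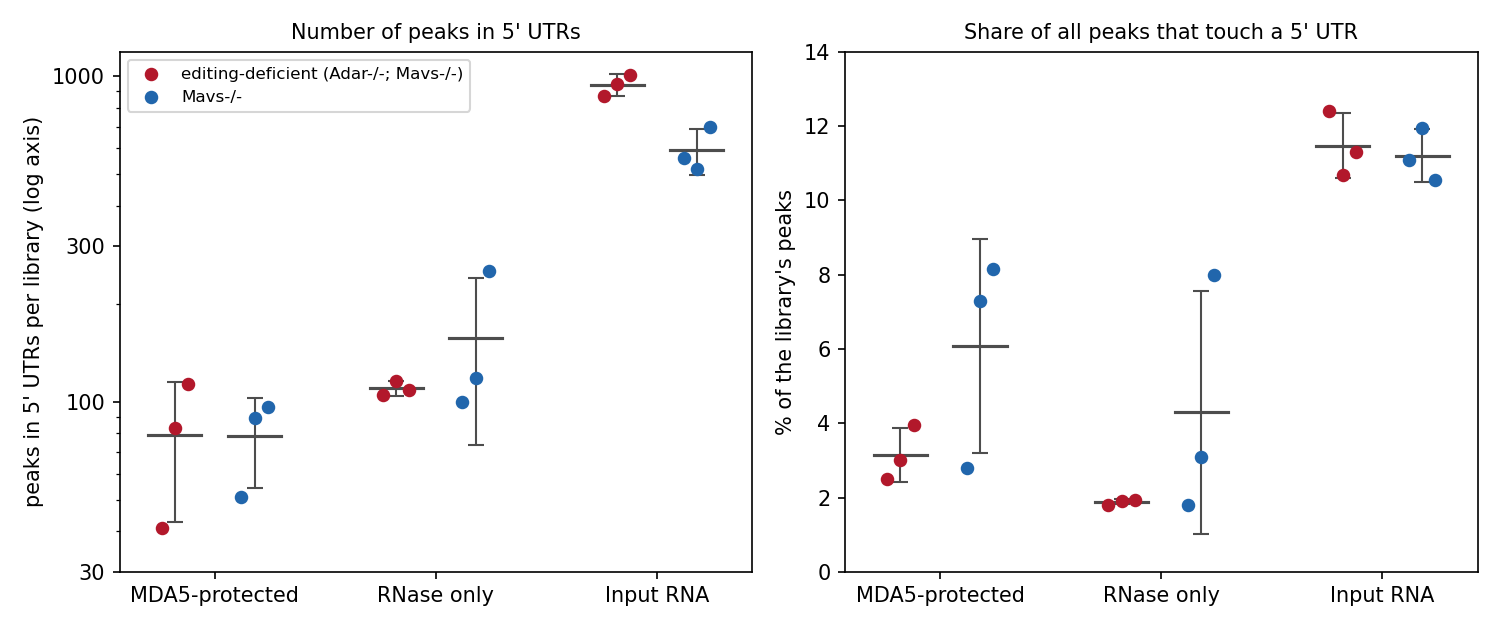
Number of peaks in 5′ UTRs per library (left, log axis) and their share of all peaks of the library in percent (right), for 3 fractions and 2 genotypes. Points are libraries, horizontal lines and bars the mean ± SD of 3 libraries; Mavs-/- RNase only replicate 3 (252 peaks, 8.00%) lies far above the other 5 libraries of its fraction, and all input libraries lie above 10%.

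Joined where they overlapped or touched, the 473 peaks formed 199 regions in 197 genes, and these were 0.941% of the 20931 protein-coding genes with an annotated 5′ UTR. Vps35l and Klk1 had 2 regions each. Of the 199 regions, 88 had a peak in 1 library, 42 in 2, 19 in 3, 20 in 4, 16 in 5 and 14 in all 6. The share found in all 6 libraries, 7.04%, was near that of all 4766 joined MDA5-protected regions (6.80%), and so was the share found in 1 library (44.2% against 47.0%). The genotypes divided these regions otherwise than they divided MDA5-protected regions as a whole. In 5′ UTRs 61 regions (30.7%) recurred in at least 2 editing-deficient and 65 (32.7%) in at least 2 Mavs-/- libraries, whereas among all regions the shares were 39.4% and 21.7%. Regions with peaks in both genotypes made up 46.7% (93) in 5′ UTRs and 36.2% of all, those of editing-deficient libraries only 28.1% (56) and 50%, and those of Mavs-/- libraries only 25.1% (50) and 13.7%. No 5′ UTR region had a peak in all 3 editing-deficient libraries and in none of the Mavs-/- libraries, a pattern held by 2.96% of all regions. The opposite pattern was held by 4 regions (2.01%), against 0.818% of all. These are counts of regions within the same 6 libraries and were not tested. All MDA5-protected peaks numbered 7272 in editing-deficient and 4229 in Mavs-/- libraries, those in 5′ UTRs 237 and 236. The share of peaks in 5′ UTRs differed between genotypes within its spread. A region in all 3 editing-deficient libraries also needs a peak in replicate 1, which held only 41 members. The part of these peak numbers in the shares of regions was not tested.

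The 14 regions found in every MDA5-protected library lay in Mpped1, Memo1, Shisa4, Mier1, Atp1b3, Nrf1, Nrg3, Ston1, Kcnmb4, Fam69a, Eps15, Mmp17, Snx10 and Ap1ar, in the order of their mean area rank within a library. The area is the score of the peak caller, which sums significance along the peak. In Mpped1, which encodes a protein with a metallophosphoesterase domain, the peak lay on chromosome 15 (83780016 to 83780216, plus strand), ran from the 5′ UTR in exon 1 of 5 into the intron, and measured 186, 190 and 188 nt in the editing-deficient and 188, 111 and 201 nt in the Mavs-/- libraries. It ranked 6th, 7th, 7th, 10th, 15th and 8th among all peaks of these libraries. Peaks covered the same place in all 6 RNase only and all 6 input libraries, and every MDA5-protected peak there had a peak opposite to it on the other strand.

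Memo1, a regulator of cell motility, also had peaks in all 18 libraries at its region on chromosome 17 (74294806 to 74294909, minus strand). The MDA5-protected peaks were 57, 104, 92, 58, 59 and 61 nt long in the order editing-deficient 1 to 3 and Mavs-/- 1 to 3, and the one with the largest area, in Mavs-/- replicate 1, had only 15 bases in the 5′ UTR, with 43 bases before the transcript start. The other recurrent regions had few or no peaks in the input.

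In Shisa4, a membrane protein of the Shisa family, no RNase only and no input library had a peak at the region on chromosome 1 (135374908 to 135375011, minus strand). Its MDA5-protected peaks measured 86, 102, 100, 102, 97 and 102 nt and their areas lay between 1604 and 1836. The genotypes overlapped in length. All 3 editing-deficient areas were above all 3 Mavs-/- areas, but the area grows with depth and was not compared between libraries. The peak spanned the start codon, with 48 bases in the 5′ UTR and 52 in the coding sequence, all in exon 1 of 5.

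Ston1, an endocytic adaptor, was the other region of the 14 without any RNase only peak. Its peaks on chromosome 17 (88597600 to 88597741, plus strand) measured 82, 83 and 81 nt in the editing-deficient and 142, 94 and 90 nt in the Mavs-/- libraries, so that all 3 Mavs-/- peaks were longer than all 3 editing-deficient peaks. Only 12 bases of the peak with the largest area lay in the 5′ UTR and 69 before the transcript start. The GC content of the 120 nt window there was 57.5%, the lowest among the 8 strongest regions found in all libraries. This window is the first 120 nt of the transcript and lies mostly outside the peak.

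Mier1, a transcriptional corepressor, had peaks of 109, 115, 107, 104, 110 and 109 nt on chromosome 4 (103119187 to 103119301, plus strand) and an RNase only peak in 1 Mavs-/- library. Nrf1, a transcription factor of genes for mitochondrial respiration, had peaks of 86, 91, 94, 83, 99 and 86 nt on chromosome 6 (30047924 to 30048027, plus strand). Here RNase only peaks were present in 2 editing-deficient and 3 Mavs-/- libraries. In both genes the genotypes overlapped in length.

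Atp1b3, a beta subunit of the sodium pump, had peaks of 77, 151 and 134 nt in the editing-deficient and 81, 81 and 76 nt in the Mavs-/- libraries (chromosome 9, 96364242 to 96364442, minus strand), and RNase only peaks in all 6 libraries. Nrg3, a ligand of the receptor ErbB4, had peaks of 75, 167, 171, 191, 171 and 144 nt wholly in its 5′ UTR of 288 nt (chromosome 14, 39472856 to 39473052, minus strand), with RNase only peaks in 1 editing-deficient and 3 Mavs-/- libraries. In both genes the range of the Mavs-/- lengths overlapped that of the editing-deficient ones.

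**Figure D2:**
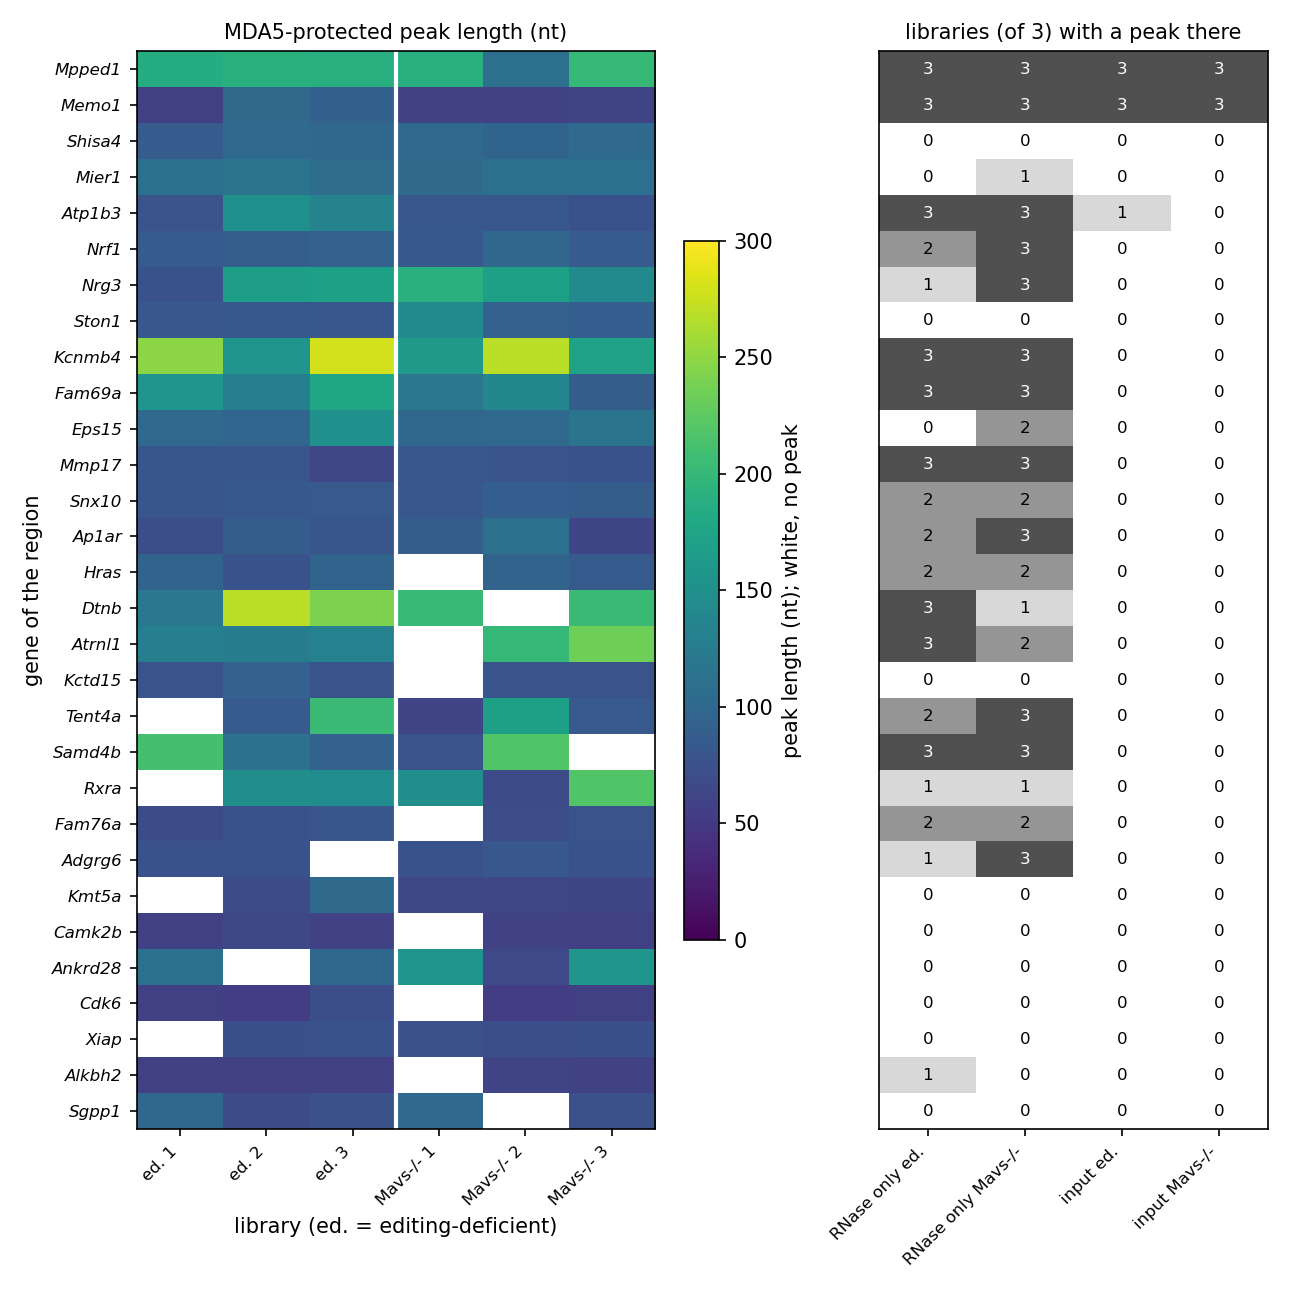
Length in nt of the MDA5-protected peak in each of 6 libraries (left, colour scale, white for no peak) and number of RNase only and input libraries with a peak at the same place (right, of 3 per genotype), for the 30 regions with a peak in at least 5 MDA5-protected libraries, the 14 found in all 6 on top. Mpped1 and Memo1 have peaks in every library of every fraction, and Shisa4, Ston1, Kctd15, Kmt5a, Camk2b, Ankrd28, Cdk6, Xiap and Sgpp1 have none in the controls.

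The 4 regions with a peak in all 3 Mavs-/- and no editing-deficient library lay in Yes1, Chd7, Tnfrsf11a and Dlg1. Yes1, a kinase of the Src family, had peaks of 58, 39 and 52 nt inside its 5′ UTR of 662 nt (chromosome 5, 32611442 to 32611499, plus strand), no RNase only peak, and an input peak in all 6 libraries. Chd7, a chromatin remodeller, had peaks of 289, 116 and 215 nt from before the transcript start into intron 1 (chromosome 4, 8691231 to 8691531, plus strand), and RNase only peaks there in all 3 Mavs-/- and no editing-deficient library. Tnfrsf11a, the receptor RANK of bone and immune cells, had peaks of 63, 114 and 133 nt (chromosome 1, 105780620 to 105780802, plus strand) and neither RNase only nor input peaks. In all 3 genes every MDA5-protected peak had a peak on the other strand opposite to it. Dlg1, a scaffold protein of cell junctions, had peaks of 155, 132 and 122 nt in its 5′ UTR of 444 nt (chromosome 16, 31663932 to 31664093, plus strand) with no RNase only or input peak there and no peak opposite. A peak that is not listed may lie just under the threshold of the caller, so the lists do not show that these RNAs were unprotected in the editing-deficient samples.

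At least 2 editing-deficient and no Mavs-/- libraries had a peak in 7 regions (3.52%, against 14.4% of all regions), and at least 2 Mavs-/- and no editing-deficient libraries in 11 (5.53%, against 2.41%). The first group, named after its values were seen, comprised Aebp2, Irf2bp2, Cela1, Tmem45b, Enah, Mgat4b and Ube2w. Irf2bp2 is a corepressor and Enah a regulator of actin filaments.

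The length of these peaks was set against that of the other MDA5-protected peaks of the same library. The median was 95, 102 and 103 nt in the editing-deficient and 103, 106 and 101.5 nt in the Mavs-/- libraries, while the other peaks had medians of 199, 199, 190, 223, 151 and 131 nt in the same order. The 5′ UTR peaks were shorter in 6 of 6 libraries, by 80.4 nt on average (two-sided exact sign-flip test, p = 0.03125, the smallest possible with 6 libraries, adjusted p = 0.0511, just above the threshold of 0.05). The genotypes differed by -3.50 nt (100.0 ± 4.36 in editing-deficient against 103.5 ± 2.29 in Mavs-/- libraries, SD, n = 3 each, exact permutation p = 0.50). Over all members the quartiles were 79 and 156 nt. The shortest was a peak of 3 nt in Cadps2, in 1 library, and the shortest after it the peak of 39 nt in Yes1.

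The longest peaks lay in Cldn7 (412 nt), Atxn7l3 (374 nt), Fbxl14 (324 nt) and, with equal lengths, Stat5b and Vps35l (297 nt each), and all 5 came from editing-deficient replicate 3, the library with the most peaks. Cldn7, a claudin of tight junctions, had its peak on chromosome 11 (69965549 to 69965960, plus strand) with 378 bases in the 5′ UTR and 34 in the coding sequence. RNase only peaks covered the same place in all 6 libraries, and its window had 45% GC. Atxn7l3, a subunit of a histone deubiquitinase module, had 195 of its bases in the intron, and Fbxl14, an F-box protein of a ubiquitin ligase, had 124 before the transcript start. Stat5b, a transcription factor that carries growth hormone signals in liver, also had a peak of 229 nt in Mavs-/- replicate 2 (chromosome 11, 100850334 to 100850633, minus strand). Vps35l, a subunit of the Commander complex of endosomal recycling, also had peaks of 192 and 125 nt at this region in Mavs-/- replicates 1 and 3 (chromosome 7, 118763996 to 118764292, plus strand). Apart from Cldn7, none of these regions overlapped an RNase only peak.

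In the RNase only libraries, peaks in 5′ UTRs had medians of 188, 136.5 and 155 nt (editing-deficient) and 159.5, 151 and 193.5 nt (Mavs-/-). MDA5-protected 5′ UTR peaks were shorter than these in 6 of 6 pairs, with 102 ± 3.66 against 164 ± 22.2 nt (SD, n = 6 each, exact permutation p = 0.005, adjusted p = 0.03), and by 56.3 nt without Mavs-/- RNase only replicate 3. This comparison was added after the data were seen. Input peaks in 5′ UTRs had medians of 291.5 to 421 nt.

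**Figure D3:**
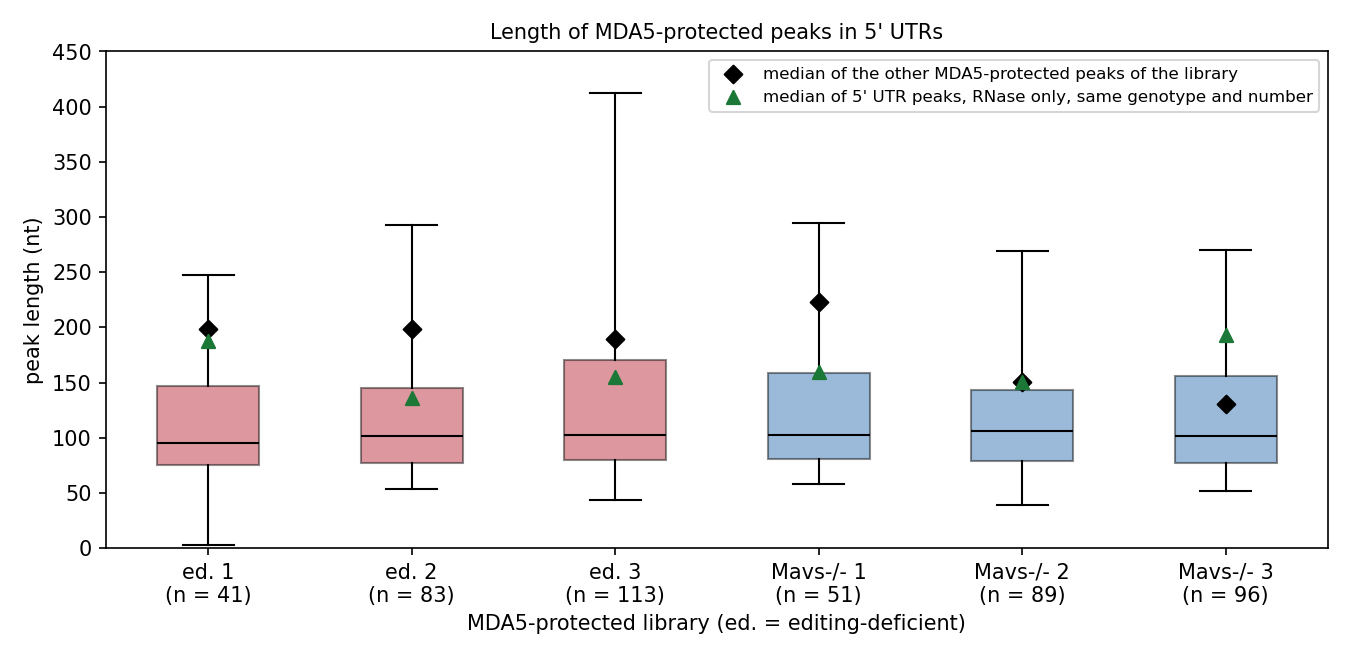
Length in nt of the MDA5-protected peaks in 5′ UTRs by library. Boxes show the median and quartiles and whiskers the shortest and longest peak, diamonds the median of the other peaks of that library and triangles the median of RNase only peaks in 5′ UTRs of the same genotype and number; the medians of the boxes lie between 95 and 106 nt, below both symbols in every library.

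Within the gene, the middle of a member lay a median of 61 nt from the transcript start and 148 nt before the start codon. Wholly inside the 5′ UTR were 200 of the 473 peaks (42.3%), 200 reached before the annotated transcript start, 58 into the coding sequence and 50 into an intron. None touched an exon of a gene of another type on its strand. Pdzd8, a lipid transfer protein of the endoplasmic reticulum, is an example of a peak at the transcript start, with 26 bases in the 5′ UTR and 81 before it (chromosome 19, 59345755 to 59345861, minus strand). It had the largest areas of all members, 72912, 114023 and 94996 in the editing-deficient libraries and 77069 in Mavs-/- replicate 1, ranking 5th, 5th, 5th and 6th there, and no peak in Mavs-/- replicates 2 and 3. No RNase only library had a peak at this place, while all 6 input libraries did.

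The median area of 5′ UTR peaks lay at percentile 62.3, 44.7, 47.1, 53.4, 45.9 and 43.6 of the areas in their libraries. It was above the median of the other peaks in 2 libraries and below it in 4, and differed from it by -0.62 percentile points on average (exact sign-flip p = 0.844). When at least 50% of the bases of a peak had to lie in 5′ UTRs, the difference was -9.33 points, in the same direction in all 6 libraries (exact sign-flip p = 0.03125).

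The overlap with RNase only peaks shows how many of these stretches also resisted digestion without MDA5ΔCARD. Of the 473 peaks, 246 (52.0%) overlapped an RNase only peak of any of the 3 libraries of their genotype, while 62.2% of all MDA5-protected peaks did so. The shares were 115 of 237 peaks in the editing-deficient (48.5%, against 61.0% of all) and 131 of 236 in the Mavs-/- mice (55.5%, against 64.2% of all). By library they were 63.4%, 47.0% and 44.2% in the editing-deficient and 60.8%, 56.2% and 52.1% in the Mavs-/- mice, where the other peaks had 67.2%, 60.3%, 59.2%, 63.0%, 66.7% and 65.6%. The 5′ UTR peaks overlapped less often in 6 of 6 libraries, with a mean difference of -9.72 points (exact sign-flip p = 0.03125, adjusted p = 0.0511). The genotypes differed by -4.80 points, within their spread (exact permutation p = 0.50). Without Mavs-/- RNase only replicate 3 these differences were -13.4 points (exact sign-flip p = 0.03125) and 7.06 points (exact permutation p = 0.60). When only the RNase only library of the same number counted, the first was -6.33 points (exact sign-flip p = 0.125). The part of the shorter length of 5′ UTR peaks in their lower overlap was not tested.

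Within the 5′ UTR peaks, those that overlapped an RNase only peak had a longer median than those that did not in 6 of 6 libraries, 112.5 against 82, 113 against 92.5 and 105.5 against 100 nt in the editing-deficient and 116 against 85, 117 against 91 and 109.5 against 95 nt in the Mavs-/- libraries. The mean difference was 21.3 nt (exact sign-flip p = 0.03125, adjusted p = 0.0511, a test added after the data were seen). Overlap was called from 1 shared base, which a longer peak reaches more easily. A difference in this direction therefore follows in part from the rule, and that part was not tested. Without Mavs-/- RNase only replicate 3 it was 14.3 nt, in 5 of 6 libraries (exact sign-flip p = 0.0938). Of the 199 regions, 91 (45.7%) overlapped no RNase only peak of either genotype. Of the 14 regions found in all 6 MDA5-protected libraries 12 overlapped one, and of those in 5 libraries 9 of 16. These counts of regions were not made over all joined MDA5-protected regions, so they do not show a trait of 5′ UTRs.

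Regions in at least 3 MDA5-protected libraries without any RNase only peak were led by Pdzd8, Shisa4, Ston1, Rilpl1, Yes1 and Kctd15. Rilpl1, a protein of the primary cilium, had peaks of 90 and 86 nt in editing-deficient replicates 2 and 3 and of 83 and 91 nt in Mavs-/- replicates 1 and 2 (chromosome 5, 124531033 to 124531125, minus strand). Kctd15, a protein with a BTB domain, had peaks of 78, 94 and 78 nt in the editing-deficient and 78 and 78 nt in Mavs-/- replicates 2 and 3 (chromosome 7, 34655334 to 34655427, minus strand). Both lay wholly in the 5′ UTR, in neither gene was there an input peak on any exon, and the lengths did not differ between genotypes beyond their spread.

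**Figure D4:**
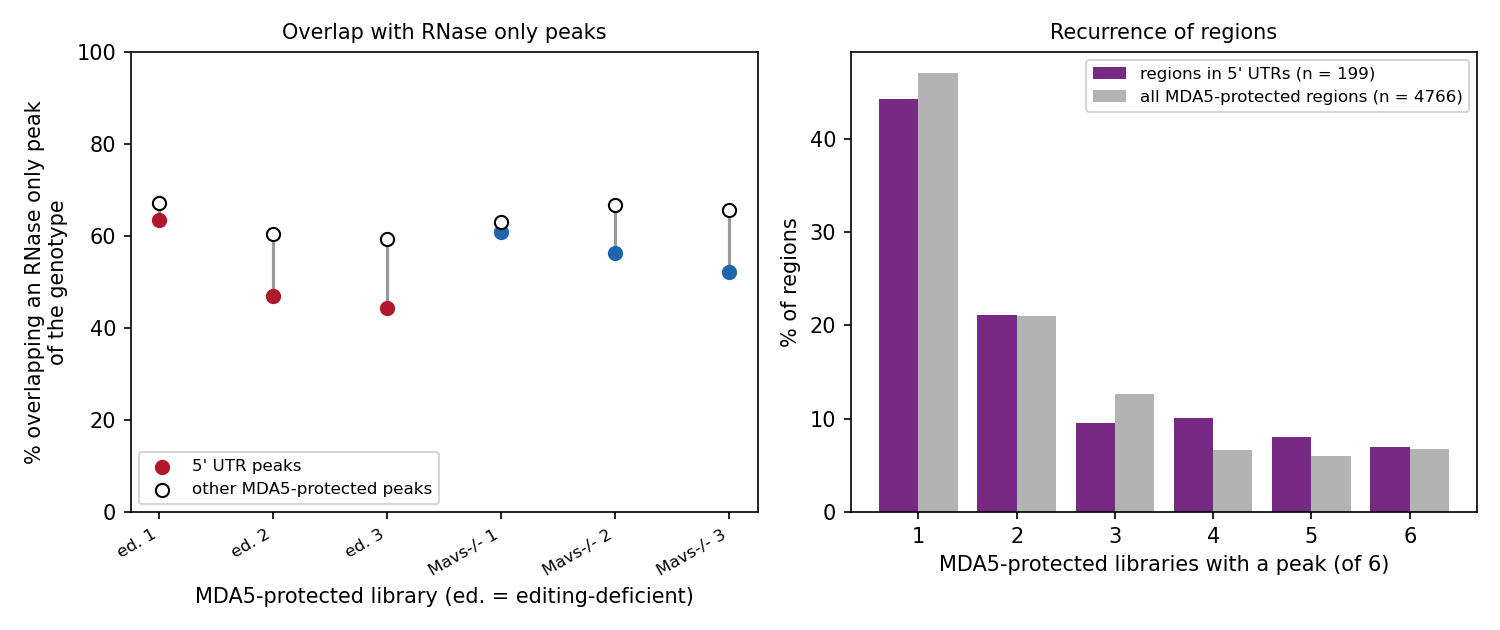
Left, percent of peaks that overlap an RNase only peak of the genotype, for 5′ UTR peaks (filled points, red for editing-deficient and blue for Mavs-/- libraries) and the other MDA5-protected peaks (open points) of each library. Right, percent of joined regions with a peak in 1 to 6 MDA5-protected libraries, for 199 regions in 5′ UTRs and all 4766; the filled points lie below the open ones in all 6 libraries, and the bars of both sets at 6 libraries are near 7%.

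Base composition was read in the 120 nt around the middle of each peak, within the spliced transcript. Where the middle lay outside the exons, the nearest exonic base of the peak was taken. A window that would run past the transcript start was moved to begin there. For many of the 200 members that reached before the start, the window thus holds transcript sequence beyond the peak. The median GC content of the 5′ UTR peaks was 78.3%, 80.0% and 80.8% in the editing-deficient and 79.2%, 80.0% and 78.3% in the Mavs-/- libraries. The genotypes overlapped. The other MDA5-protected peaks with their middle in an exon of a protein-coding gene had medians of 48.8% to 50%, lower by 30.1 points on average (exact sign-flip p = 0.03125, adjusted p = 0.0511). A 5′ UTR is richer in G and C than other exonic sequence, so the peaks were also set against 5′ UTRs in general. The middle of the longest 5′ UTR of 20916 protein-coding genes had a median GC of 58.3% (quartiles 49.2% and 67.5%), and the first 120 nt of the same transcripts a median of 59.2%. GC contents of at least 75% were found in 340 of the 473 members (71.9%), against 10.6% of the genes' 5′ UTR middles.

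In RNase only 5′ UTR peaks the median GC was 56.7%, 69.2% and 71.7% in the editing-deficient and 63.8%, 70.4% and 81.7% in the Mavs-/- libraries. MDA5-protected peaks were higher in 5 of 6 pairs, the exception being Mavs-/- replicate 3, and by 10.6 points on average (exact permutation p = 0.02, adjusted p = 0.0511). With the replicate number as a block p was 0.0625 in the exact sign-flip test, and without Mavs-/- RNase only replicate 3 the difference was 13.1 points (exact permutation p = 0.005). In the RNase only fraction the GC content also spread more between libraries, with an SD of 8.36 points against 1.01. Input peaks in 5′ UTRs had medians of 59.2% to 60.8%. A window follows the middle of the peak in the exons, which can lie outside the 5′ UTR. This is more so in longer peaks such as those of the input. Of the input peaks 11.3% touched a 5′ UTR on average, and 3.51% had their middle base in one. With the middle base in a 5′ UTR, mean GC was 81.8% with MDA5 and 74.6% in RNase only libraries. The difference was then 7.22 points (exact permutation p = 0.02).

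The predicted folding energy of the same windows followed the same order, with the same limits on where they lie. RNAfold gave the MDA5-protected windows median minimum free energies of -59.1, -61.2 and -61.4 kcal/mol in the editing-deficient and -61.2, -61.9 and -60.6 kcal/mol in the Mavs-/- libraries. The mean was -60.9 ± 0.976 against -28.3 ± 1.40 kcal/mol in other exonic peaks of the same libraries (SD, n = 6 each, exact sign-flip p = 0.03125, adjusted p = 0.0511) and -46.0 ± 9.14 in RNase only 5′ UTR peaks (exact permutation p = 0.015, adjusted p = 0.0511). The block gave p = 0.0625 for the latter (exact sign-flip test), and the values without Mavs-/- RNase only replicate 3 were -60.9 against -43.0 kcal/mol (exact permutation p = 0.005). The median over the genes' 5′ UTR middles was -37.1 kcal/mol. Folding energy rises in size with GC content, and the part of GC in this difference was not tested.

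**Figure D5:**
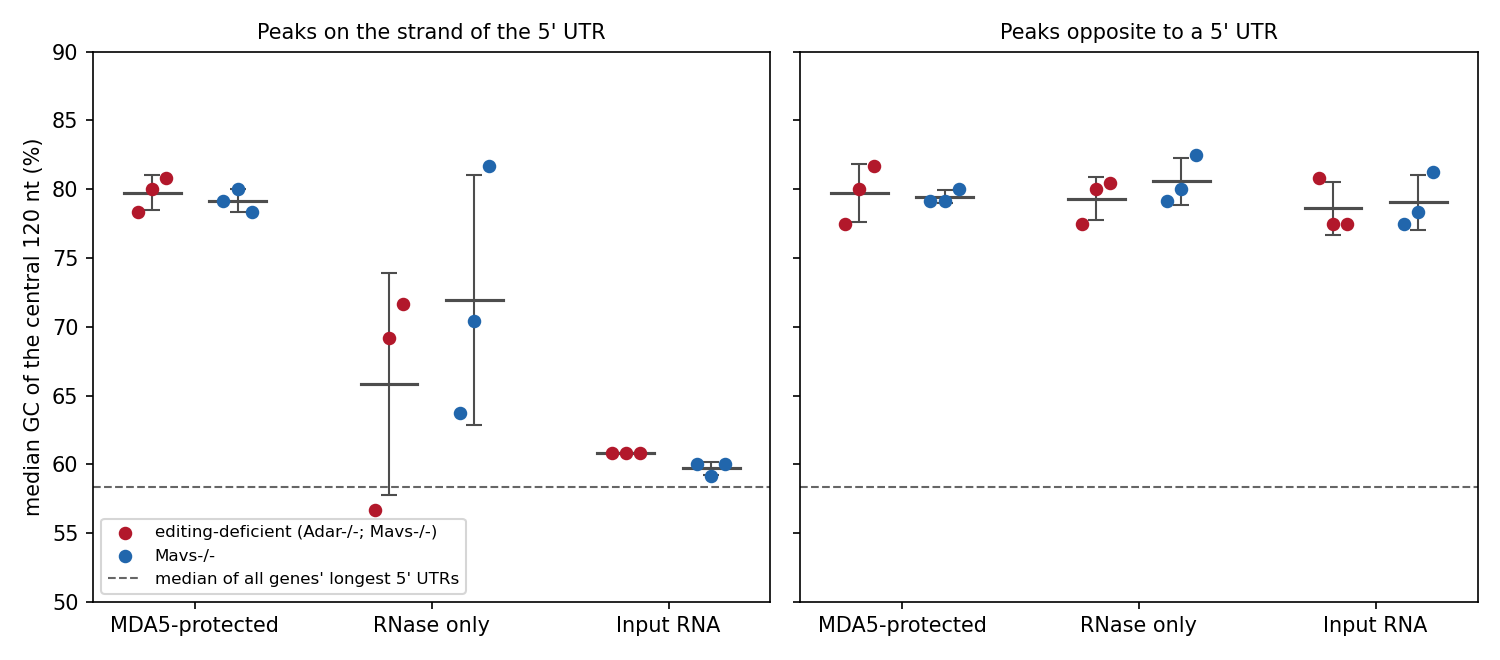
Median GC content in percent of the central 120 nt of peaks on the strand of the 5′ UTR (left) and of peaks opposite to a 5′ UTR (right), by fraction and genotype. Windows follow the middle of the peak and can lie outside the 5′ UTR. Points are libraries, lines and bars the mean ± SD of 3 libraries, and the dashed line the median of 5′ UTR middles over all genes (58.3%); on the left MDA5-protected libraries lie at 78.3% to 80.8% and input at 59.2% to 60.8%, on the right all 18 libraries lie at 77.5% or higher.

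The windows were also searched on the mRNA strand for simple motifs. The dinucleotide CG occurred a median of 19 times in a member window and 5 times in the middle of a gene's 5′ UTR, and the longest run of only G and C had medians of 17 and 7 nt. A pattern of 4 runs of GGG with spacers of 1 to 7 bases, the shape of a G-quadruplex, was present in 58 members (12.3%) and 2.70% of gene windows. The same pattern with CCC, which is a GGG pattern on the opposite strand, was present in 83 members (17.5%) and 3.17%. CGGCGGCGG was found in 50 members (10.6%) against 2.04%, and CCGCCGCCG in 63 (13.3%) against 1.43%. In the 800 RNase only 5′ UTR peaks the shares lay between these values, with 6.38% for the GGG pattern, 8.75% for the CCC pattern, 10% for CGGCGGCGG and 10.3% for CCGCCGCCG. These motifs overlap each other in GC-rich sequence, members of 1 region repeat the same window, and a match is not evidence of a structure. No 2 regions shared an exact run of 25 bases in their windows.

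Peaks on the other strand were counted because the libraries are directional. In the MDA5-protected libraries 39, 83 and 103 peaks of the editing-deficient and 58, 67 and 88 of the Mavs-/- mice lay opposite to a 5′ UTR and on none of their own strand. They made up 48.8%, 50% and 47.7%, and 53.2%, 42.9% and 47.8%, of the peaks that touched a 5′ UTR on either strand. In each library about as many peaks lay against the strand of the mRNA as with it. In the input this share was 4.44% to 9.09%, a difference of 42.0 points (exact permutation p = 0.005, adjusted p = 0.03). In RNase only libraries it was 13.2%, 35.9% and 38.4% in the editing-deficient and 33.8%, 35.5% and 52.1% in the Mavs-/- mice, a difference of 13.6 points (exact permutation p = 0.015, adjusted p = 0.0511, with the block p = 0.0625 in the exact sign-flip test, and 17.0 points without Mavs-/- RNase only replicate 3, exact permutation p = 0.005). These comparisons were added after the data were seen. In 3′ UTRs the antisense share of MDA5-protected libraries was lower, at 5% to 18%. There it was 1.08% to 5.18% in RNase only and 0.673% to 1.25% in input libraries. Each MDA5-protected library was above the RNase only library of the same genotype and number. A higher antisense share with MDA5 was thus not particular to 5′ UTRs, and the 3′ UTR shares were not tested.

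The antisense peaks had a median GC of 77.5% to 81.7% in the MDA5-protected, 77.5% to 82.5% in the RNase only and 77.5% to 81.3% in the input libraries, where the sense members of the MDA5-protected libraries had 78.3% to 80.8%. The antisense peaks of the MDA5-protected libraries lay in 165 genes, of which 35 also had a sense member. Of the 473 members, 55 (11.6%) had a peak of the same library opposite to them, against 6.81% of all MDA5-protected peaks. By library the shares were 4.88%, 9.64% and 5.31% of the editing-deficient and 17.6%, 14.6% and 17.7% of the Mavs-/- members. The share over all peaks was not taken by genotype, so this difference does not show a trait of 5′ UTR peaks. The part of antisense RNA, or of any template read on both strands, in the 5′ UTR peaks was not tested.

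Abundance of the mRNA was followed through the input peaks. Of the members, 65 (13.7%) overlapped an input peak of their genotype, against 6.37% of all MDA5-protected peaks. Of the 199 regions, 84 (42.2%) lay in a gene with an input peak on an exon, and such genes make up 20.3% of all protein-coding genes with a 5′ UTR. The remaining regions lay in genes without an input peak on an exon. In RNA of whole liver, fewer cells of a type and less RNA per cell cannot be told apart. The share of genes with an input peak was 24.4%, 41.0% and 38.4% in the editing-deficient and 26.0%, 28.1% and 28.1% in the Mavs-/- libraries, against 13.2% to 29.1% for genes with RNase only 5′ UTR peaks. It was higher with MDA5 in 6 of 6 pairs, by 9.03 points (exact permutation p = 0.035, adjusted p = 0.0525, with the block 0.03125, a test added after the data were seen). Without Mavs-/- RNase only replicate 3 the difference was 9.25 points (exact permutation p = 0.07).

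The genes were set against lists of mRNAs known for their 5′ UTRs and of liver functions. None of 6 genes with an iron-responsive element in the 5′ UTR, such as Fth1 and Ftl1, had a member, although all 6 had input peaks. None of 3 collagen genes with a stem-loop at the start codon, of 87 terminal oligopyrimidine mRNAs, of 68 translation factors or of 7 genes with upstream reading frames in the stress response had one, with input peaks in 3, 65, 37 and 5 of them. There were none among 84 genes of RNA helicases, hnRNPs and SR proteins and 27 of interferon signalling and dsRNA sensing. Among 25 secreted liver proteins, such as albumin, all had input peaks and none had a member. Of all genes with a 5′ UTR 0.941% had a member, so a count of 0 or 1 in lists of this size is near that background.

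Of 25 genes of growth control with structured 5′ UTRs, Cdk6 and Xiap had a member (8%, against 0.941% of all genes with a 5′ UTR). This share rests on 2 genes, was not tested, and comes from a list chosen with earlier results of these data known. Cdk6, a kinase of the G1 phase, had peaks of 57, 54 and 72 nt in the editing-deficient and 54 and 57 nt in Mavs-/- replicates 2 and 3 (chromosome 5, 3343869 to 3343940, plus strand). Xiap, an inhibitor of apoptosis, had peaks of 73 and 75 nt in editing-deficient replicates 2 and 3 and 74, 72 and 73 nt in the Mavs-/- libraries (chromosome X, 42068503 to 42068577, plus strand), wholly in its 5′ UTR of 507 nt. Neither had an RNase only or input peak at the region. The Cdk6 window had a GC content of 61.7% and a folding energy of -35 kcal/mol, and the Xiap window 65.8% and -15.5 kcal/mol. Both energies were far weaker than the median of the members, and neither was stronger than the -37.1 kcal/mol of the genes' 5′ UTR middles.

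Of 18 liver transcription factors, Rxra, the partner of nuclear receptors for bile acids, oxysterols and fatty acids, had a member in 5 libraries, with 148 and 146 nt in editing-deficient replicates 2 and 3 and 148, 69 and 218 nt in the Mavs-/- libraries (chromosome 2, 27677035 to 27677252, plus strand). All 5 peaks had a peak opposite to them, and an RNase only peak was present in 1 library of each genotype. Of 461 zinc finger genes 6 (1.30%) had a member, Zbtb18, Zfp217, Zfp236, Zfp362, Zfp422 and Zfp516. Zfp516 was the most recurrent of these, with peaks of 96 and 100 nt in editing-deficient replicates 2 and 3 and 122 nt in Mavs-/- replicate 2. Zbtb18, Zfp217, Zfp236, Zfp362 and Zfp422 had 1 peak each.

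The labels of tissue and genotype were looked up in the same lists. All 6 hepatocyte markers (Alb, Apoa1, Ttr, Serpina1a, Afp and Cps1) had input peaks in all 6 libraries, and no marker of hepatocytes, erythroid, endothelial, Kupffer or stellate cells had a 5′ UTR member. Adar had an input peak in 2 editing-deficient and no Mavs-/- libraries, and Mavs had no peak in any library. A peak does not show which exons a transcript carries, so this does not check the genotypes.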

How the data were processed

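Liver RNA of editing-deficient and Mavs-/- mice was compared in 18 libraries, grouped by their deposited genotype and fraction labels, with none left out. The authors trimmed 75 bp single-end reads of a directional library (Trim Galore 0.6.6), mapped them to GRCm38 (NextGenMap) and called peaks for each library and strand (Genrich 0.6.1), with input of the genotype as the control of digested libraries. They kept peaks with an area of at least 500, an adjusted P-value up to 0.01 and gaps up to 20 bp. The signal column deposited by the authors is the area of the peak, which grows with depth and was ranked within libraries only. The significance column is −log10 of the adjusted P-value as deposited. No read counts or coverage were used, so depth by library was not taken into account.

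A library gave 1 value per measure. Genotypes were compared with exact permutation tests (3 against 3), fractions with labels exchanged within genotypes (400 splits), and peaks of 1 library with exact sign-flip tests, all two-sided, with Benjamini-Hochberg adjustment over all 18 tests, those added after the data were seen included. The last 2 added tests were length by RNase only overlap and genes with an input peak. Apart from length by RNase only overlap, the differences with an adjusted p of 0.0511 had 0.05 or less when adjusted without these 2. Other tests added after the data were seen stayed in that adjustment. Same-numbered MDA5-protected and RNase only libraries deviated together from their group means in the presence of 5′ UTR peaks (correlations of 0.116 to 0.253 in 6 of 6 pairs). Their numbers were therefore taken as pairs in an alternative, from the data and not the labels. The main tests between fractions and all adjusted p-values do not use these pairs. Blocked exact sign-flip tests of 6 pairs cannot give a p under 0.03125 and were not adjusted. Blocked values are given where they change a call at the unadjusted threshold. Same-numbered MDA5-protected and input libraries did not (-0.06 to -0.02). Same-numbered MDA5-protected libraries of different genotypes had correlations of 0.130, 0.119 and 0.0203, of which 0.130 and 0.119 lie within the range above. They were not taken as pairs, and blocking them changed no call between genotypes.

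Each peak took the transcript with most of its bases in the 5′ UTR. Windows of 120 nt were read from spliced GENCODE M21 transcripts and folded with ViennaRNA 2.7.2. Bases of a peak before the transcript start or in an intron are not in them. No genome sequence was used, so GC and folding were compared with other exonic peaks, not with all other peaks as first planned. Regions named are the 8 strongest in all 6 libraries, those in all libraries of 1 genotype only, the 6 strongest in at least 3 libraries without RNase only peaks, the 4 longest (with 1 more of the same length as the last), and up to 3 per gene list. Members and lists were chosen with earlier results of these data known. Steps were tested on simulated data. Python 3.11.15, numpy 2.4.6, scipy 1.17.1 and matplotlib 3.10.9 were used.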

Additional observations from a re-analysis of the deposited data

How the results depend on the processing

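Of 275 alternative values of 20 results, 192 kept their direction and side of the threshold (unadjusted p of 0.05) or, for counts, stayed within 1.5 times. With 1 replicate left out, sign-flip tests over 5 libraries cannot give a p under 0.0625. The difference in median length from other peaks then ranged from -90.6 to -72.5 nt, in RNase only overlap from -11.3 to -8.67 points, in GC from other exonic peaks from 29.8 to 30.4 points in folding energy from -32.9 to -32.4 kcal/mol and in length between members with and without RNase only overlap from 15.5 to 28.6 nt. Without Mavs-/- RNase only replicate 3 alone, which leaves 6 libraries, the overlap was -13.4 and the last 14.3.

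The genotype difference in number of peaks ranged from -16.7 to 19.3 with replicates left out and was -34.7 with the same number of peaks taken from each library (equal numbers). The genotype difference in length was 0.17 nt with strands ignored, 3.17 nt with a minimum area of 1000 and 6.00 nt with equal numbers. The genotype difference in RNase only overlap was 1.33 points by the middle base, 1.96 with at least 50% of the bases in 5′ UTRs, and -10.7 to 7.06 with libraries left out. The area percentile differed by -9.28 (middle base), -9.33 (50% of the bases), 0.58 (basic transcripts), 1.23 (equal numbers) and -3.24 to 0.63 points (replicates left out).

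The share against input was -0.50 (middle base), -0.39 (50% of the bases) and -3.31 points (strands ignored), no longer past the threshold. RNase only overlap against other peaks was -6.32 (strands ignored), -7.40 (equal numbers), -7.51 (at least 50% covered) and -6.33 points (same number), with p above 0.05 in each. GC against RNase only was 5.35 points with strands ignored and 8.33 to 13.3 with replicates left out, and the share against RNase only 0.98 to 1.80 points (2.5 without Mavs-/- RNase only replicate 3 alone). The share of genes with an input peak was higher than in RNase only by 7.93 to 9.48 points and stayed past the threshold without editing-deficient replicate 1 or 2 only. The GC call was lost without editing-deficient replicate 1 (8.33 points), 2 (10.5) or 3 (10.8), each with an exact permutation p of 0.0667, and the share passed the threshold without Mavs-/- replicate 3 (1.80 points, exact permutation p = 0.0333).

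With the replicate block, the share against RNase only (1.52 points) passed the threshold and the GC (10.6 points), folding (-14.9 kcal/mol) and antisense (13.6 points) differences did not; no other call changed with the pairing.

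Regions in at least 2 libraries of the genotype numbered 40 and 40 with 50% of the bases in 5′ UTRs, 126 and 114 with strands ignored, and 19 and 15 with a minimum area of 1000 (editing-deficient and Mavs-/-), 27 with equal numbers (editing-deficient) and 41 by the middle base (Mavs-/-). Without 1 replicate they numbered 30 to 61 and 33 to 65, with 32 and 30 without editing-deficient replicates 2 and 3 and 33 and 36 without Mavs-/- replicates 2 and 3. The causes of these changes were not tested.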
